A study of Mus musculus with 4 samples.

Results

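The genes of the constitutive proteasome were examined in 4 livers, each from a male C57BL/6J mouse. Members were chosen by name: every symbol in the expression table that begins with Psm, a letter from a to g and a number. Psmb8, Psmb9, Psmb10, Psme1 and Psme2, which belong to the immune form of the complex, were left out. This rule found 44 of the 24138 rows. No measured value entered it, although it was set with earlier results of these data known. Of the 44 genes, 41 reached a mean of 1 FPKM (fragments scaled for transcript length and for the mapped fragments of the library), the level from which a gene is called expressed here, as did 10541 rows of the table. Each mouse was 18 weeks old and had received the FAT-MASH diet, which is used to produce metabolic dysfunction-associated steatohepatitis, plus RvD1 (resolvin D1, a mediator made from docosahexaenoic acid). All 4 livers, numbered as in the labels, belong to this single treated group. Diet-only, vehicle-treated or chow-fed livers were not analysed here, so every value describes treated animals and their spread, and no effect of diet or RvD1 can be read from it.

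The proteasome is the protease that removes proteins tagged with ubiquitin. Its 20S core particle is a barrel of stacked rings, in which the outer rings are made of alpha subunits and the inner rings of beta subunits, and the beta subunits Psmb5, Psmb6 and Psmb7 carry the active sites. The 19S regulatory particle caps the barrel: a ring of ATPases (Psmc genes) unfolds the substrate, and non-ATPase subunits (most Psmd genes) bind ubiquitin, cut it off and hold the particle together. Core and cap form the 26S proteasome. Transcription of its subunits is known to be raised together by the factor Nfe2l1 when proteasome activity falls short. In hepatocytes the proteasome takes part in the turnover of apolipoprotein B and of enzymes of sterol synthesis.

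The members fall into 6 roles and 3 further genes. They comprise 7 alpha subunits, 7 beta subunits, 6 ATPases, 11 non-ATPase subunits, 7 assembly chaperones (Psmd5, Psmd9, Psmd10 and Psmg1 to Psmg4) and 3 regulators of the core particle, namely the activators Psme3 and Psme4 and the inhibitor Psmf1. The 31 genes of the first 4 roles are called the 26S core subunits below. Psma8, Psmb11 and Psmc3ip make up the rest. Psma8 and Psmb11 encode subunits of the testis and the thymus, and Psmc3ip, although its name matches the rule, encodes a factor of meiotic recombination and no subunit.

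Promoter sequences are shown for 4 core subunits, each with 1 match to the letters marked in it. Nfe2l1 is known to act through antioxidant response elements. Whether such motifs have a part in the differences between livers given below was not tested. RefSeq promoters of build GRCm38.p6 were matched to 36 of the 44 members by symbol, giving 38 windows. The members with no window matched were Psma8, Psmb1, Psmb2, Psmb7, Psmc3, Psmd3, Psmd7 and Psmg2. Each sequence below holds the 250 bases before the transcription start, 5′ to 3′ on the strand of the gene. In Psmb5 (minus strand, chr14:54617996-54618245) and Psmb6 (plus strand, chr11:70525107-70525356), the catalytic subunits with a window, capitals mark TGANNNNGC, a loose form of the antioxidant response element in which N is any base. In Psmd2 (plus strand, chr16:20651402-20651651) and Psmd4 (minus strand, chr3:95042615-95042864), which encode a scaffold and a ubiquitin receptor of the cap, capitals mark CCGGAAG, a core of Ets factor sites, or its reverse complement.
Psmb5: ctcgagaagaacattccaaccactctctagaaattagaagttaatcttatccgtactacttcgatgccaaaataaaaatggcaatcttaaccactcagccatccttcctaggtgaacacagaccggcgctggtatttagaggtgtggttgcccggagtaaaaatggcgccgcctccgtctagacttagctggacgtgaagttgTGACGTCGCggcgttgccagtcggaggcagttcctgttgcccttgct
Psmb6: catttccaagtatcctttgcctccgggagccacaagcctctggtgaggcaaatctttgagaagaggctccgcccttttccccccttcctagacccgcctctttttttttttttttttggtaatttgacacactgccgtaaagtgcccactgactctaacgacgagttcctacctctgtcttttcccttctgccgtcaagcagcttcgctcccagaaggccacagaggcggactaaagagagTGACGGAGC
Psmd2: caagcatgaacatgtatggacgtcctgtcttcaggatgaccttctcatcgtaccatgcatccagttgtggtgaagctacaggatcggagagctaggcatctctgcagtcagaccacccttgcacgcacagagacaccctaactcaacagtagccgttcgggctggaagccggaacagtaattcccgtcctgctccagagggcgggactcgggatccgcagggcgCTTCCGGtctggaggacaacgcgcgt
Psmd4: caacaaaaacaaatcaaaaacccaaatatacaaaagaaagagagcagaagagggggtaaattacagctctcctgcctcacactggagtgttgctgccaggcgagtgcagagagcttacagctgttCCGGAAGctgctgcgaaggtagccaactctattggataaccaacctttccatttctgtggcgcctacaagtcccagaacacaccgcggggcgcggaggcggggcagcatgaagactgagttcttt
The match in Psmb5 began 47 bases before the start and that in Psmb6 began 9 bases before it. The matches in Psmd2 and Psmd4 began 26 and 125 bases before the start.

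Over both strands, the loose string TGANNNNGC was found in 16 of the 38 member windows (42.1%). It was in 36.8% of 10438 windows of expressed genes and 35.2% of all 32851 windows. Its share in members thus lay near the background. CCGGAAG was found in 14 of 38 (36.8%), against 13.6% of expressed and 6.91% of all windows. The nuclear respiratory factor motif was in 6 of 38 (15.8%), all of them in windows of core subunits, against 8.20% of expressed windows. Shares near the background of expressed genes were found for CCAAT (14 windows, 36.8% against 35.1%), GGGCGG (19 windows, 50% against 57.5%), TATAAA (3 windows, 7.89% against 6.70%) and CACGTG (3 windows, 7.89% against 8.52%). TGACGTCA and the YY1 motif were in 0 windows of members, against 2.61% and 0.50% of expressed windows. Matches of TGANNNNGC and GGGCGG overlapped in 4 members (Psma4, Psmd5, Psmd9 and Psmg4), and those of GGGCGG and CCGGAAG in Psme4. These are letter matches and were not tested for binding.

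Constitutive proteasome genes were well expressed in each liver. As a share of all FPKM in the table they took 0.503%, 0.460%, 0.443% and 0.485% in the 4 animals, in the order of their numbers (0.473 ± 0.0264%, SD, n = 4). The table lists Alb, a defining hepatocyte gene, at 0 in every liver. If that is a missing estimate, the table sums are too low and the shares too high. The rescaling of libraries to equal sums, used below, rests on the same totals. The median of the members' means was 49.03 FPKM, against 7.83 FPKM over all expressed genes. Of the 41, 15, all of them core subunits, stood among the top 10% of expressed genes. Levels were ordered by role, from a median of 113 FPKM in the beta ring and 80.7 FPKM in the alpha ring, through 57.7 FPKM in the ATPase ring and 48.04 FPKM in the non-ATPase subunits, to 20.97 FPKM in activators and inhibitor and 13.7 FPKM in assembly chaperones. The libraries were estimated to hold between 18800000 and 20100000 fragments. The method limits that number to a band around an assumed depth, so it is a rough guide. At that depth, 1 fragment on a transcript of 1000 bases is worth about 0.0622 to 0.0664 FPKM, far below the level of any of the 41.

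**Figure D1:**
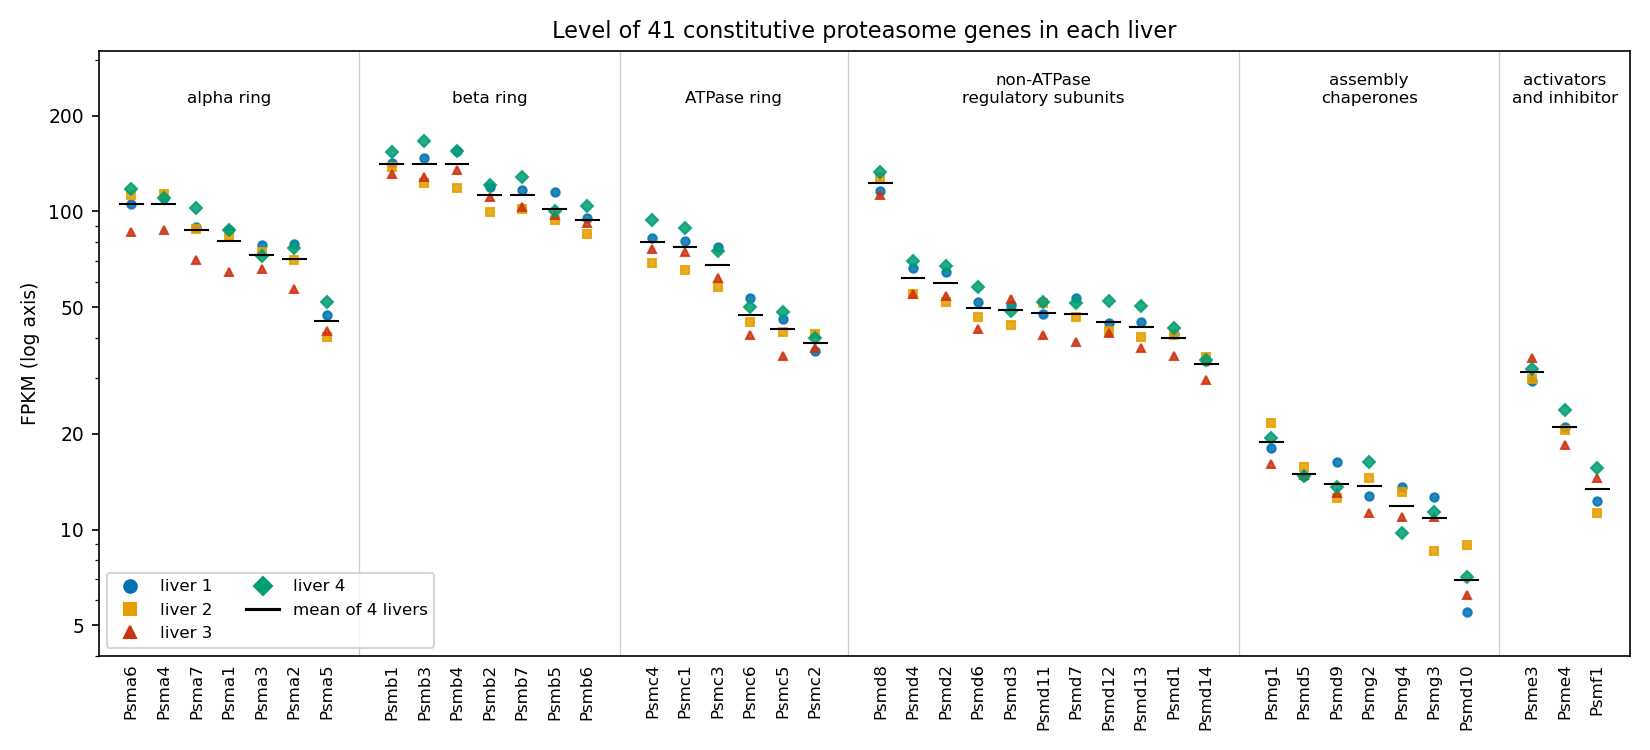
FPKM of the 41 expressed members in each liver on a log axis, grouped by role and ordered by mean, with symbols for livers 1 to 4 and a bar at the mean. Means run from 6.93 FPKM for Psmd10 to 141 FPKM for Psmb1, and the symbols of liver 3 lie lowest for 6 of the 7 alpha subunits.

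The beta ring held the most abundant members. Psmb1 had 142, 138, 131 and 154 FPKM in livers 1 to 4 (mean 141 ± 9.64 FPKM, SD, n = 4). Psmb3 and Psmb4 had almost the same mean, at 141 ± 19.6 and 141 ± 17.3 FPKM (SD, n = 4), and their ranges overlapped that of Psmb1. The catalytic subunits were somewhat lower. Psmb5, the chymotrypsin-like subunit (XLOC_006655, chromosome 14, 54614120 to 54617995), had 115, 93.99, 97.7 and 100.3 FPKM in livers 1 to 4. Psmb6, the caspase-like subunit (XLOC_002840, chromosome 11, 70525357 to 70527858), had 95.3, 84.9, 92.2 and 103.7 FPKM and was the lowest of the ring. Psmb7, the trypsin-like subunit (XLOC_012288, chromosome 2, 38588046 to 38643906), had 117, 101.7, 103.2 and 129 FPKM. Each of the 3 was lowest in liver 2, while the highest liver was liver 1 for Psmb5 and liver 4 for Psmb6 and Psmb7. The highest mean of the ring was 1.505 times the lowest.

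Alpha subunits, which form the gate of the barrel, spread over a wider range. Psma6 had the highest mean (105.45 FPKM), at 106, 113, 85.9 and 118 FPKM in livers 1 to 4. The mean of Psma4 was almost the same (105.37 FPKM), and Psma4 was below Psma6 in liver 4 alone. Psma5 was the lowest at 47.3, 40.2, 41.96 and 52.02 FPKM. The highest liver of Psma5 stayed below the lowest liver of each other alpha subunit, and the highest over the lowest mean of the ring was 2.32. Psma1 had 87.5, 83.5, 64.5 and 87.5 FPKM, and Psma4 had 109.95, 114, 87.7 and 110.2 FPKM. Psma7 had 89.04, 87.9, 70.3 and 102 FPKM, the largest spread among core subunits (SD 0.22 of log2(FPKM + 1)). In these 3 genes livers 1, 2 and 4 lay together or above, and liver 3 lay apart below them. Psma3 varied little (SD 0.10), at 78.3, 74.4, 65.9 and 72.5 FPKM, and was again lowest in liver 3. Across the 14 subunits of both rings, which the particle holds in equal numbers, the highest mean was 3.12 times the lowest, and 12 of the 13 neighbouring pairs in the order of means had overlapping ranges.

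In the 19S particle, Psmc4 was the highest of the ATPases at 82.4, 68.6, 76.3 and 93.97 FPKM in livers 1 to 4. Psmc2 was the lowest at 36.4, 41.1, 37.1 and 40.1 FPKM, and with an SD of 0.08 it was the steadiest core subunit. The ATPases spanned 2.08-fold, and 4 of the 5 neighbouring pairs overlapped. Among non-ATPase subunits Psmd8, a component of the lid, stood apart at 116, 129, 113 and 133 FPKM, whereas the other 10 had means from 33.1 to 61.6 FPKM. Psmd14, the enzyme of the lid that cuts ubiquitin chains from the substrate, was the lowest core subunit at 33.8, 34.9, 29.6 and 34.1 FPKM (SD 0.10). Its highest liver lay below the lowest liver of Psmc2, the next gene in the order, which was the sole break without overlap among the 30 neighbouring pairs of core subunits. Taken liver by liver, further neighbours kept their order in all 4 livers. These were Psmd6 below Psmd2, Psmd2 below Psmd4, Psmd4 below Psmc3, Psmc1 below Psmc4 and Psma1 below Psma7. The ubiquitin receptor Psmd4 had 66.5, 54.9, 55.1 and 69.9 FPKM, and the scaffold Psmd1 had 41.2, 40.8, 35.2 and 42.9 FPKM.

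Assembly chaperones, which bind intermediates and are not part of the finished complex, were lower and had no common order of livers. Psmg1, which pairs with Psmg2 to start the alpha ring, was the highest at 18.02, 21.7, 16.1 and 19.4 FPKM in livers 1 to 4. Psmg2 had 12.8, 14.5, 11.3 and 16.3 FPKM. Psmg3, which pairs with Psmg4, had 12.6, 8.56, 10.9 and 11.4 FPKM. Thus liver 2 was highest for Psmg1 and lowest for Psmg3. Psmd10, also called gankyrin, a chaperone of the ATPase ring, was the lowest expressed member and the most variable, at 5.49, 8.94, 6.21 and 7.09 FPKM (SD 0.26), a 1.63-fold range. Psmd5, another chaperone of that ring, was the steadiest member, at 14.7, 15.7, 14.8 and 14.7 FPKM (SD 0.04).

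Among the genes that act on the core particle from outside the 26S complex, the nuclear activator Psme3 had 29.2, 29.7, 34.5 and 31.97 FPKM in livers 1 to 4. Psme4, which encodes a large activator linked to histone turnover, had 21.1, 20.6, 18.4 and 23.8 FPKM. Psmf1, an inhibitor of the core particle in vitro, had 12.3, 11.3, 14.5 and 15.7 FPKM. The ranges of these 3 did not overlap. Psme3 was the sole member of this role that was highest in liver 3.

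The remaining members were listed under 1 FPKM. Psmb11 was listed at 0 in all 4 livers. An exact 0 may be a missing estimate and not a low level, since the table also lists Alb at 0 in every liver. Psma8 was listed at 0.350, 0.342, 0 and 0.481 FPKM, and Psmc3ip at 0.525, 0.0762, 0.523 and 0.0804 FPKM. At the estimated depth the values are about 11.5, 1.61, 11.2 and 1.65 fragments for Psmc3ip, which shares its deposited span with Mlx, and fewer than 11.5 in every liver for Psma8.

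Most core subunits were higher in livers 1 and 4 than in livers 2 and 3. Expressed as log2(FPKM + 1) less the mean of the gene, the 41 members had median deviations of 0.07, -0.06, -0.12 and 0.13 in livers 1 to 4. Over all expressed genes it was -0.01, -0.02, -0.01 and 0.04. Members lay above their own mean 31 times of 41 in liver 1 (47.2% of all expressed genes did), 15 times in liver 2 (45.1%), 4 times in liver 3 (47%) and 35 times in liver 4 (60.8%). The highest liver was liver 4 for 22 members (33.3% of all expressed genes), liver 1 for 11 (17.9%), liver 2 for 6 (22%) and liver 3 for 2 (26.8%). The lowest was liver 3 for 20 (31.4%), liver 2 for 16 (29.9%), liver 1 for 3 (20.7%) and liver 4 for 2 (18.1%). The deviations of a gene sum to 0, so these counts are not independent of each other.

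The strictest form of this order, chosen after the values were seen, was that livers 1 and 4 both exceeded livers 2 and 3. It held for 26 of the 41 members and for 23 of the 31 core subunits, while 18.8% of all expressed genes had it. Outside the core it held for 3 of 10 genes, and the difference from the core was not tested. The number of core subunits was 20 with median-ratio scaling, with 14.7% of all expressed genes, and 19 after rescaling to TPM, which gives each library the same sum, with 11.3%. The summed FPKM of the table was 570681 in liver 4 and between 516816 and 524394 in the other livers, and with that scaling the median deviation of the members in liver 4 was 0.03. With a liver left out, the median deviation ranged from 0.02 (without liver 3) to 0.12 (without liver 4) in liver 1, from -0.12 (without liver 3) to -0.01 (without liver 4) in liver 2, from -0.14 to -0.09 in liver 3 and from 0.08 (without liver 3) to 0.17 in liver 4. The differences were small in size: for 40 of the 41 members the highest liver was less than 1.5 times the lowest. The median SD of the members, 0.17, was close to that of all expressed genes, 0.16.

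**Figure D2:**
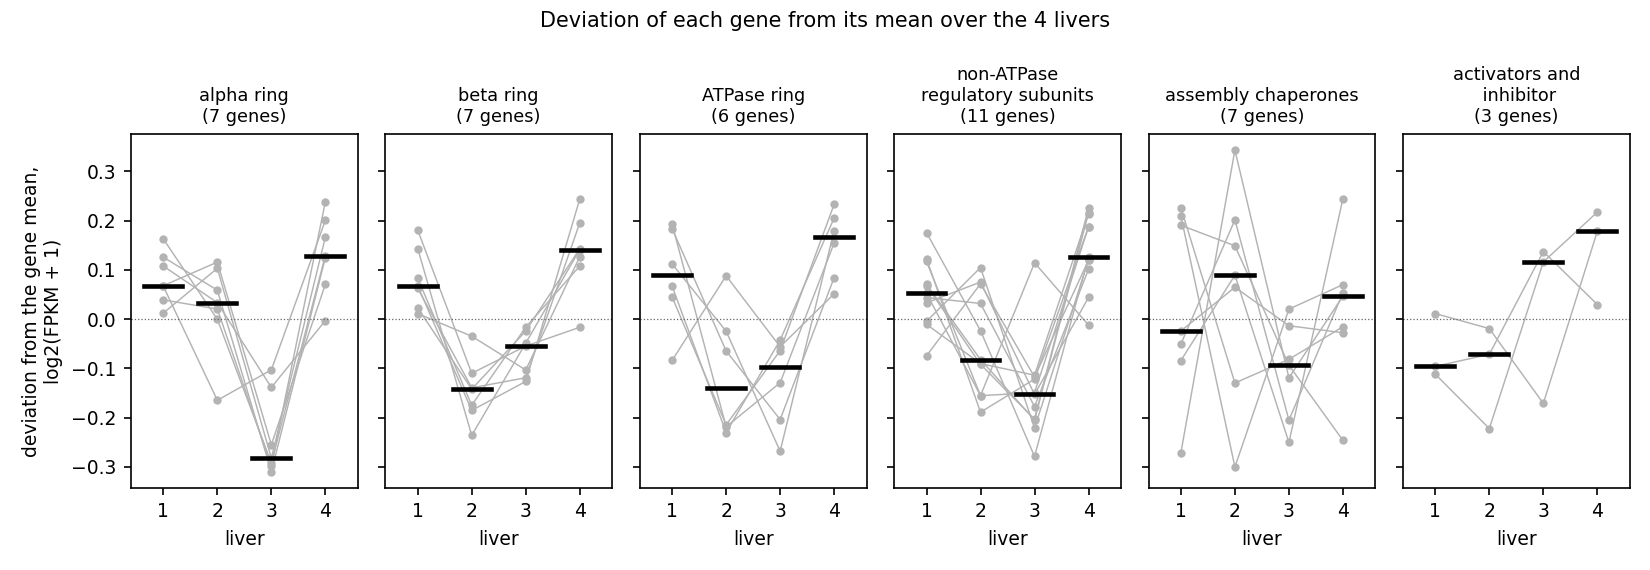
Deviation of each expressed member from its own mean over the 4 livers, on the log2(FPKM + 1) scale, with 1 panel per role. Grey lines join the values of a gene and black bars mark the median, which in the alpha ring falls to -0.28 in liver 3 and in the beta ring is lowest in liver 2, at -0.14.

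Bulk RNA cannot tell fewer cells of a type from less RNA per cell, and markers of several cell types differed between the livers. The 6 hepatocyte markers examined (Ttr, Apoa1, Apoa2, Cyp2e1, Hnf4a and Asgr1) were present in every liver. Their summed level was 40822, 32910, 42522 and 43586 FPKM in livers 1 to 4, and 2, 0, 3 and 5 of the 6 were above their own mean in livers 1, 2, 3 and 4, so that liver 1 was low in more of them than liver 3. The sum in liver 3 was carried by Apoa2 (17254, 11166, 20665 and 13518 FPKM in livers 1 to 4), while Ttr, Apoa1 and Cyp2e1 were below their mean there. Alb, a defining hepatocyte gene, was listed at 0 in each library, as said above. All 4 macrophage markers were above their mean in liver 2 (sums 51.2, 62.8, 46.3 and 62.4 FPKM), as were all 3 endothelial markers (9.52, 16.5, 10.8 and 12.7 FPKM). The sums for cholangiocyte markers were 14.1, 17.01, 15.1 and 14.2 FPKM. Those for the 3 stellate markers, 148, 201, 125 and 147 FPKM, were nearly all Dcn (139.8, 193.9, 117 and 141 FPKM). The others had another order, highest in liver 1 and lowest in liver 4: Des had 3.55, 2.90, 3.11 and 2.22 FPKM, and Lrat had 4.91, 4.18, 4.05 and 3.26 FPKM. The part of these differences in those of the proteasome genes was not tested.

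The rings differed in which liver was lowest. In the alpha ring 6 of 7 genes were lowest in liver 3, the exception being Psma5. In the beta ring 6 of 7 were lowest in liver 2, the exception being Psmb1. The difference of liver 2 minus liver 3 had a median of 0.32 in the alpha ring, with 6 of 7 genes higher in liver 2, and of -0.06 in the beta ring, with 1 of 7 higher, while 49.7% of all expressed genes were higher in liver 2. In consequence the mean alpha subunit stood at 0.670, 0.766, 0.592 and 0.667 of the mean beta subunit in livers 1 to 4. This ratio is taken within a liver and does not depend on the scaling of a library. The ratio of the mean 19S subunit to the mean 20S subunit was much closer between animals, at 0.549, 0.553, 0.561 and 0.562 (0.556 ± 0.00610, SD, n = 4). With the median over subunits in place of the mean it was 0.483, 0.480, 0.460 and 0.487.

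**Figure D3:**
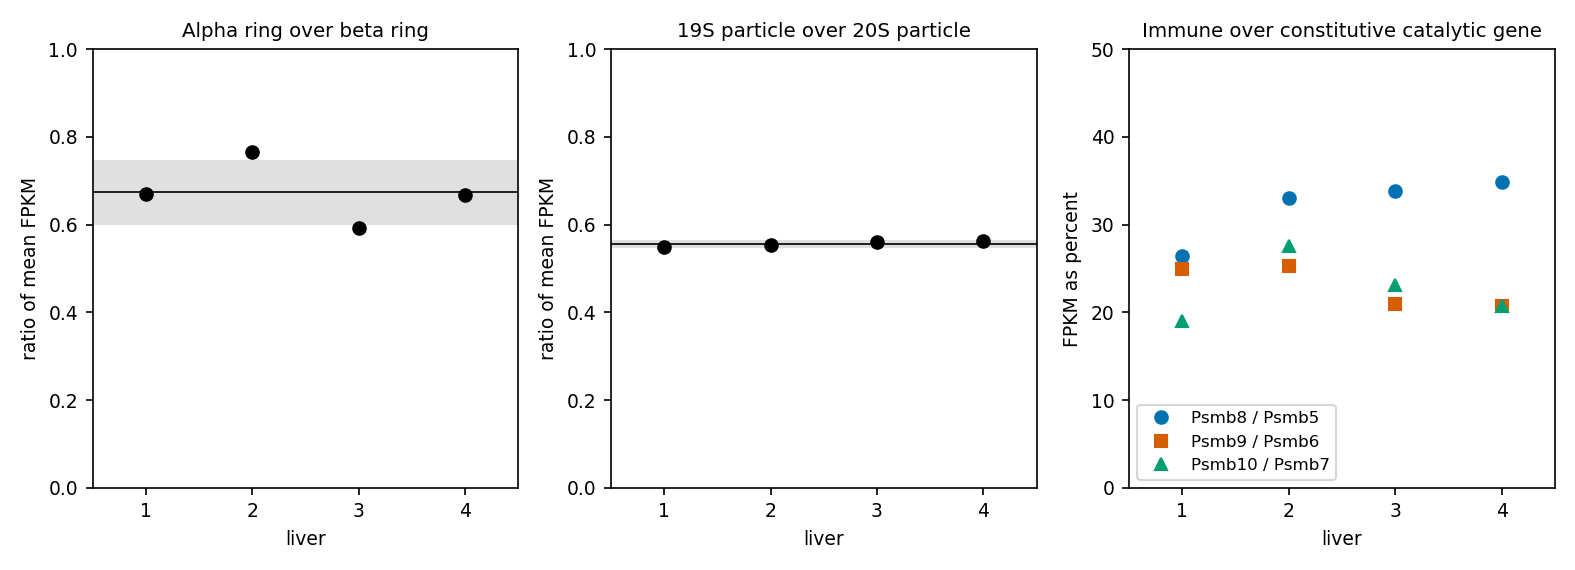
Ratios within each liver: the mean alpha over the mean beta subunit (left), the mean 19S over the mean 20S subunit (middle, each with the mean as a line and 1 SD as a grey band) and the immune over the constitutive catalytic genes as percent of FPKM (right). The alpha to beta ratio is highest in liver 2 (0.766) and lowest in liver 3 (0.592), while the 19S to 20S ratio runs from 0.549 to 0.562.

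Base composition moved with this split. The median GC content of the transcripts was 45.7% for alpha subunits and 52.2% for beta subunits. Across 9997 expressed genes with an annotated coding transcript, the deviation in liver 3 correlated with GC content (Pearson's r = 0.35), that in liver 2 inversely (r = -0.21), and the difference of liver 2 minus liver 3 had r = -0.31. Among the 41 members this last correlation was -0.54. Genes share their libraries and are not replicates, so no p-value is given. In bins of GC content the median difference over all genes went from 0.22 at the lowest GC to -0.19 at the highest. After the median of all expressed genes with like GC content had been subtracted in each liver, a step added after the data were seen, the median difference was 0.21 in the alpha ring and -0.06 in the beta ring, and the alpha to beta ratio was 0.672, 0.734, 0.629 and 0.655 in livers 1 to 4. The counts then differed less between the rings: 5 of 7 alpha subunits were lowest in liver 3, whereas 4 of 7 beta subunits were lowest in liver 2 and the other 3 in liver 3. On the same adjusted values 27.3% of all expressed genes were lowest in liver 3 and 25.8% in liver 2. Higher values in liver 2 than in liver 3 were then found for 5 of 7 alpha subunits, 3 of 7 beta subunits and 50.1% of all expressed genes. Livers 1 and 4 then both exceeded livers 2 and 3 for 21 of the 31 core subunits and for 15.4% of all expressed genes. The median deviation of the members was then 0.06, -0.06, -0.10 and 0.07.

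**Figure D4:**
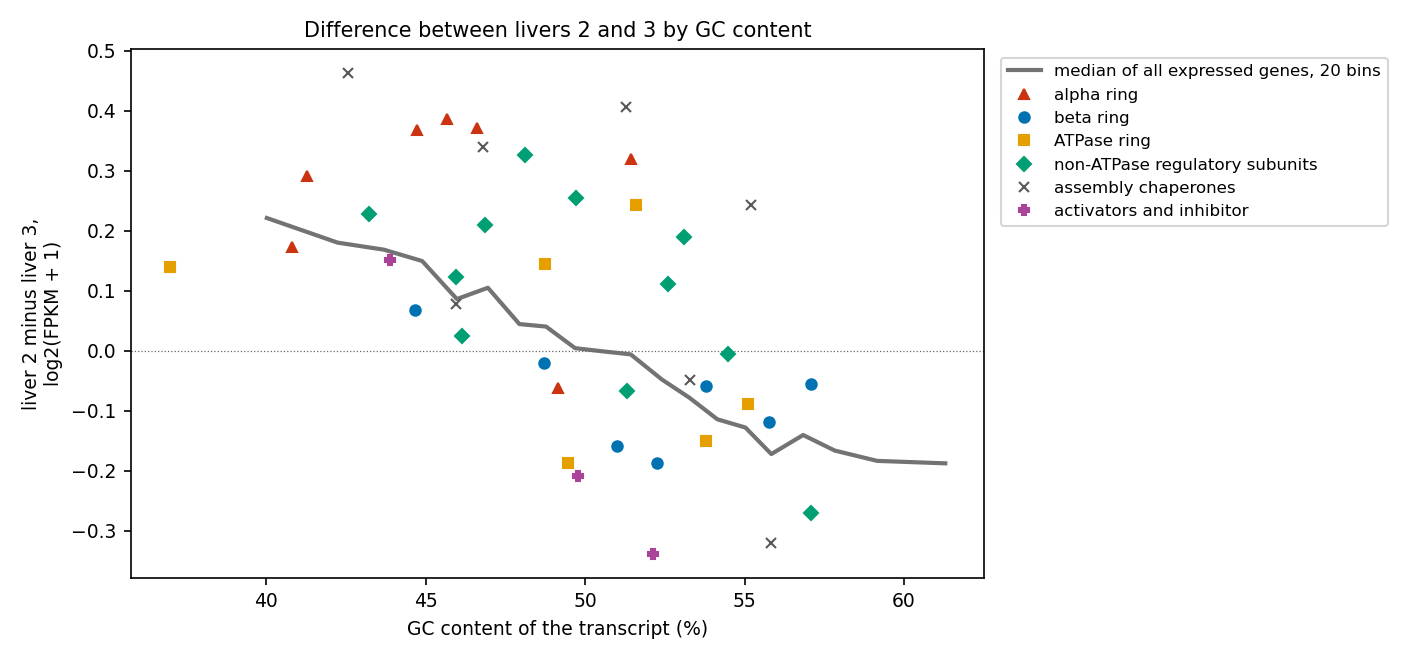
Difference of liver 2 minus liver 3 in log2(FPKM + 1) for each expressed member, coloured by role, against the GC content of its transcripts in percent. The grey line is the median of all expressed genes in 20 bins of GC content and falls from 0.22 to -0.19, with 6 of 7 alpha subunits above 0 and 6 of 7 beta subunits below it.

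Single livers that stood apart were looked for with Dixon's ratio, which divides the distance of the outermost liver from the next by the full range, at its 95% critical value. It marked 3 of the 41 members (7.32%), against 5.46% of all expressed genes, a share near the background. These were Psma1 and Psma4, low in liver 3, and Psmd5, high in liver 2 by a small amount. After the adjustment for GC content 1 member was marked.

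The constitutive catalytic genes were compared within each liver with the immune genes that take their places after interferon. Psmb8 stood at 26.4%, 33.05%, 33.8% and 34.8% of Psmb5 in livers 1 to 4, a log2 ratio of -1.65 ± 0.18 (SD, n = 4). Psmb9 stood at 24.9%, 25.3%, 20.9% and 20.7% of Psmb6 (log2 ratio -2.13 ± 0.16), and Psmb10 at 19.01%, 27.6%, 23.2% and 20.8% of Psmb7 (log2 ratio -2.16 ± 0.23, both SD, n = 4). The pairs did not share an order of livers. Liver 1 had the lowest share of Psmb8 and of Psmb10, but not of Psmb9. Summed, the immune genes reached 23.3%, 28.7%, 26% and 25% of the constitutive ones. The immune activators Psme1 and Psme2 together averaged 2.27, 2.02, 1.95 and 2.32 times the level of Psme3.

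Further genes of the pathway were taken from lists of subunits and assembly factors, regulators of transcription and ubiquitin factors. Of 8 subunits and assembly factors in the table, all expressed, Pomp, the chaperone that matures the beta ring, was the highest at 128, 129.8, 119.7 and 141 FPKM, near the level of the beta subunits and 6.90 times that of Psmg1. Shfm1, a small subunit of the lid, had 114, 90.01, 89.9 and 87.1 FPKM. The ubiquitin receptor Adrm1 had 53.2, 40.2, 57.1 and 58.98 FPKM. Of these 8 genes 5 were lowest in liver 3, as were 31.4% of all expressed genes. Among them was AI314180, the adaptor Ecm29 that tethers core to cap, at 14.05, 14.07, 11.5 and 14.5 FPKM. The transcription factor Nfe2l1 had 27.4, 23.8, 29.3 and 26.8 FPKM, and Ddi2, the protease that activates it, had 35.3, 30.4, 39.7 and 38.6 FPKM. Both were highest in liver 3 and lowest in liver 2. The other 3 of the 5 regulators were lowest in liver 3. Nfe2l2, a related factor of the antioxidant response, had 41.5, 37.6, 35.2 and 35.7 FPKM. Ngly1, which removes sugars from Nfe2l1, had 14.2, 15.4, 12.6 and 16.3 FPKM. Vcp, the ATPase that extracts it from the membrane, had 118, 95.5, 94.8 and 113 FPKM. Of the 10 ubiquitin and shuttle factors 0 were lowest in liver 3 and 5 were highest there (26.8% of all expressed genes were highest there). In liver 2, 5 of the 10 were lowest (29.9% of all expressed genes). Ubb, which encodes ubiquitin, had 293, 227, 249 and 260.5 FPKM. The shuttle factor Ubqln1 varied little, from 45.5 to 48.3 FPKM.

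Some of these values carry a limit from the annotation. The deposited spans of 5 members are also those of other rows: Psma6 shares its span with Nfkbia, Ppp2r3c, 1110008L16Rik and Mir1198, Psmd1 with Htr2b, Psma3 with 3110056K07Rik, Psma4 with AY074887 and Psmc3ip with Mlx. Processed copies named after 4 members (Psma5, Psmb5, Psmb6 and Psmb7) are annotated in RefSeq, and how reads were divided between a gene and such copies, or whether strand was used where genes overlap, is not given in the sources used here.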

How the data were processed

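Per the labels' protocols, RNeasy columns gave total liver RNA, from which a company made poly(A)-enriched libraries. The submitters' processing notes name FastQC 0.10.1, Trim Galore 0.6.3, cutadapt, STAR 2.7.6a, Cufflinks 2.2.1 and the build mm10, without roles. The deposited values name no unit and were taken as FPKM, made by the authors, because they are fractional, sum to 516816 to 570681 per library and carry Cufflinks identifiers. Annotation and counting options are not given in the sources used here. Starts were increased by 1.

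FPKM hold no read counts. To estimate depth, genes whose only GENCODE vM21 transcript was longer than 800 bases were used. The median was taken of products of FPKM and length (less 200 bases) inside a fixed window around the value assumed for a single fragment. Since that window bounds the result, the depth and the fragment counts from it are partly an input. Values were analysed as log2(FPKM + 1), which understates differences of low genes, with Python 3.11.15, numpy 2.4.6 and pandas 2.3.3. Of the table's value columns 0 were unmatched. With a single group no comparison between groups or replicate block was possible, and no p-value was computed. Whether the animals shared cages or litters is not stated. Dixon's ratio was tested on simulated data. GC content is the median over protein-coding transcripts of GENCODE vM21. Members, gene lists and alternatives were chosen with earlier results of these data known. Values per liver are given for catalytic subunits, the highest and lowest of each role, the 5 members with the largest and the 5 with the smallest SD, members past Dixon's value and those under 1 FPKM. Others were chosen after their values were seen. Some genes of the wider lists are not reported here.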

Additional observations from a re-analysis of the deposited data

Results flagged for a closer look

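In 3 members a single liver stood apart by Dixon's ratio, which chance does in about 1 of 20 genes. Psma1 was low in liver 3 at 64.5 FPKM, while elsewhere it ran from 83.5 to 87.5 FPKM. Psma4 was also low there, at 87.7 FPKM against 109.95 to 114 FPKM elsewhere. Psmd5 was high in liver 2, at 15.7 FPKM against 14.7 to 14.8 FPKM. Of the other genes examined, AI314180 was 11.5 FPKM in liver 3 (14.05 to 14.5 FPKM elsewhere), Shfm1 was 114 FPKM in liver 1 (87.1 to 90.01 FPKM), Uchl5, a deubiquitinase of the cap, was 12.6 FPKM in liver 2 (8.84 to 9.38 FPKM), Ubqln2 was 11.4 FPKM in liver 3 (8.76 to 8.99 FPKM) and Apoa1 was 15343 FPKM in liver 4 (11922 to 12320 FPKM). By list, Dixon's ratio marked 3 of 8 subunits and assembly factors, 1 of 10 ubiquitin factors and 1 of 6 hepatocyte markers. No expressed gene of the other lists was marked, while 5.46% of all expressed genes were. The summed FPKM of the table was 570681 in liver 4 and lay between 516816 and 524394 in the others.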

How the results depend on the processing

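For 15 summary values, 123 values were recomputed under the alternatives. Of these, 48 are the median deviations of the members, for which the spread between livers of single genes (median SD 0.17) is wider than the deviations and gives no measure of stability. They ranged from 0.02 to 0.12 in liver 1, -0.12 to -0.01 in liver 2, -0.14 to -0.08 in liver 3 and 0.03 to 0.17 in liver 4, so that the size in livers 1, 2 and 4 changed severalfold while 0 changed sign. Of the other 75, 65 moved by less than the spread between livers (or, for counts, by at most 1.5-fold) and 10 moved more. The summed share of the members was 0.443% for the 26S core subunits and 0.823% of the table without its 100 highest rows. Their median level was 70.8 FPKM for the core subunits and 92.1 TPM after rescaling each library to the same sum. The median SD was 0.14 both with that scaling and after the GC adjustment, and between 0.14 (without liver 3) and 0.20 (without liver 1) when a liver was left out. Dixon's ratio marked 3 members as reported and 1 after the GC adjustment. The range of the 14 subunits of the 20S particle was 3.25-fold with medians over livers. No paired analysis was possible because the samples form a single group. Depth limits Psma8 and Psmc3ip, with at most about 11.5 estimated fragments in a liver.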
